A study of Mus musculus with 4 samples.

Results

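Interferon-stimulated genes, with the sensors and transcription factors that work beside them, were followed in mammospheres grown from basal mammary cells of mice exposed to bisphenol A (BPA), to the carcinogen 7,12-dimethylbenz[a]anthracene (DMBA), to both or to neither. The members were the rows of the deposited count files whose gene symbol is 1 of 39 listed symbols. Of these, 38 were found among the 22609 genes of the files, and all 38 passed the filter that kept 13638 genes, a count of 20 or more in 1 or more libraries. The one symbol not found as a row was Ifi27. RefSeq gives Ifi27l1 as an older name of the current Ifi27, and that row held 2155, 1242, 2006 and 1172 counts in the control, BPA, DMBA and BPA+DMBA libraries. RefSeq also lists Ifi27 as a synonym of Ifi27l2a, so neither row was taken as the member.

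Mammospheres are colonies that mammary cells form in suspension, here after 7 days in culture, and the starting cells were basal cells taken by fluorescence-activated sorting from 4-month-old Balb/C mice on a low-phytoestrogen diet. The control mice were gavaged with sesame oil for 3 weeks from day 21, and the BPA mice with BPA, an estrogenic plastics monomer, at 25 µg/kg/day over the same weeks. The DMBA mice had the oil and then a single gavage of DMBA at 30 mg/kg when 2 months old, and the BPA+DMBA mice had both agents. Each group was 1 library from the pooled spheres of 5 animals, so no difference between groups has a replicate check, and RNA was read after culture and not in the gland.

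Type I and type III interferons bind surface receptors whose Janus kinases activate STAT2. STAT2 acts with IRF9 in a complex that binds the interferon-stimulated response element (ISRE) in the promoters of target genes. Many of the products act against RNA viruses, by sensing foreign RNA, halting translation, degrading RNA or attaching the ubiquitin-like protein ISG15 to other proteins. Epithelial cells, those of the mammary gland included, keep a low level of these transcripts without infection.

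The libraries held 30627055 (control), 19672730 (BPA), 26682738 (DMBA) and 15672532 (BPA+DMBA) counts on genes, and values are given in this order throughout. A count of 0 allows up to 3 counts, which in CPM (counts scaled to library size) is 0.098, 0.152, 0.112 and 0.191. Basal markers were present in every library: Krt5 had 3510, 2856, 15576 and 7434 counts, Krt14 8877, 6040, 24481 and 12892, and Trp63 1219, 921, 2785 and 1199. The basal list summed to 3812.0, 3911.7, 5481.9 and 5318.5 CPM, with Itgb1 as its largest part. Luminal markers summed to 15469, 15134.7, 11270.3 and 11084.3 CPM, and fibroblast markers to 9909.8, 7387.9, 6103.0 and 9983.5 CPM. Most of the luminal sum was 1 gene, Ltf, at 10600, 10000, 7050 and 6920 CPM. Most of the fibroblast sum was Col1a1, Col1a2 and Col3a1. These sums thus rest on few genes. In such bulk samples fewer cells of a type and less RNA per cell cannot be told apart.

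The members spanned a wide range of levels. Per kilobase of exon, the mean over the 4 libraries was highest for Bst2 (39.6 CPM per kb), which tethers budding virus particles to the cell, and for the RNA sensor Ddx58 (36.1). Trim25, a ubiquitin ligase of the Ddx58 pathway, had 21.6 CPM per kb, and the ADP-ribosyltransferase family gene Parp9 had 20.0. The antiviral GTPases Mx1 and Mx2 had the lowest, 0.262 and 0.372 CPM per kb, followed by Ifit3 with 0.729 and the nucleotide kinase Cmpk2 with 0.73. In all, 18 members had a mean under 10 CPM and 12 members reached fewer than 150 counts in their best library. The smallest count of a member was 15, for Mx2 in DMBA, and the largest 4047, for Ddx58 in control.

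Over the 4 libraries a member's highest CPM exceeded its lowest by a median of 1.52-fold, against 1.27-fold over all kept genes. Irf1, a transcription factor of interferon responses, varied least, with 27.8, 28.3, 28.6 and 27.9 CPM. Ifi44, a gene induced by type I interferon, varied most, 3.21-fold, and the other members that varied at least 2-fold were Ifit3 (3.16), Mx2 (2.69), Ifit1 (2.21) and Isg15 (2.07). Those 5 of 38 members compare with 10.6% of all kept genes.

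**Figure D1:**
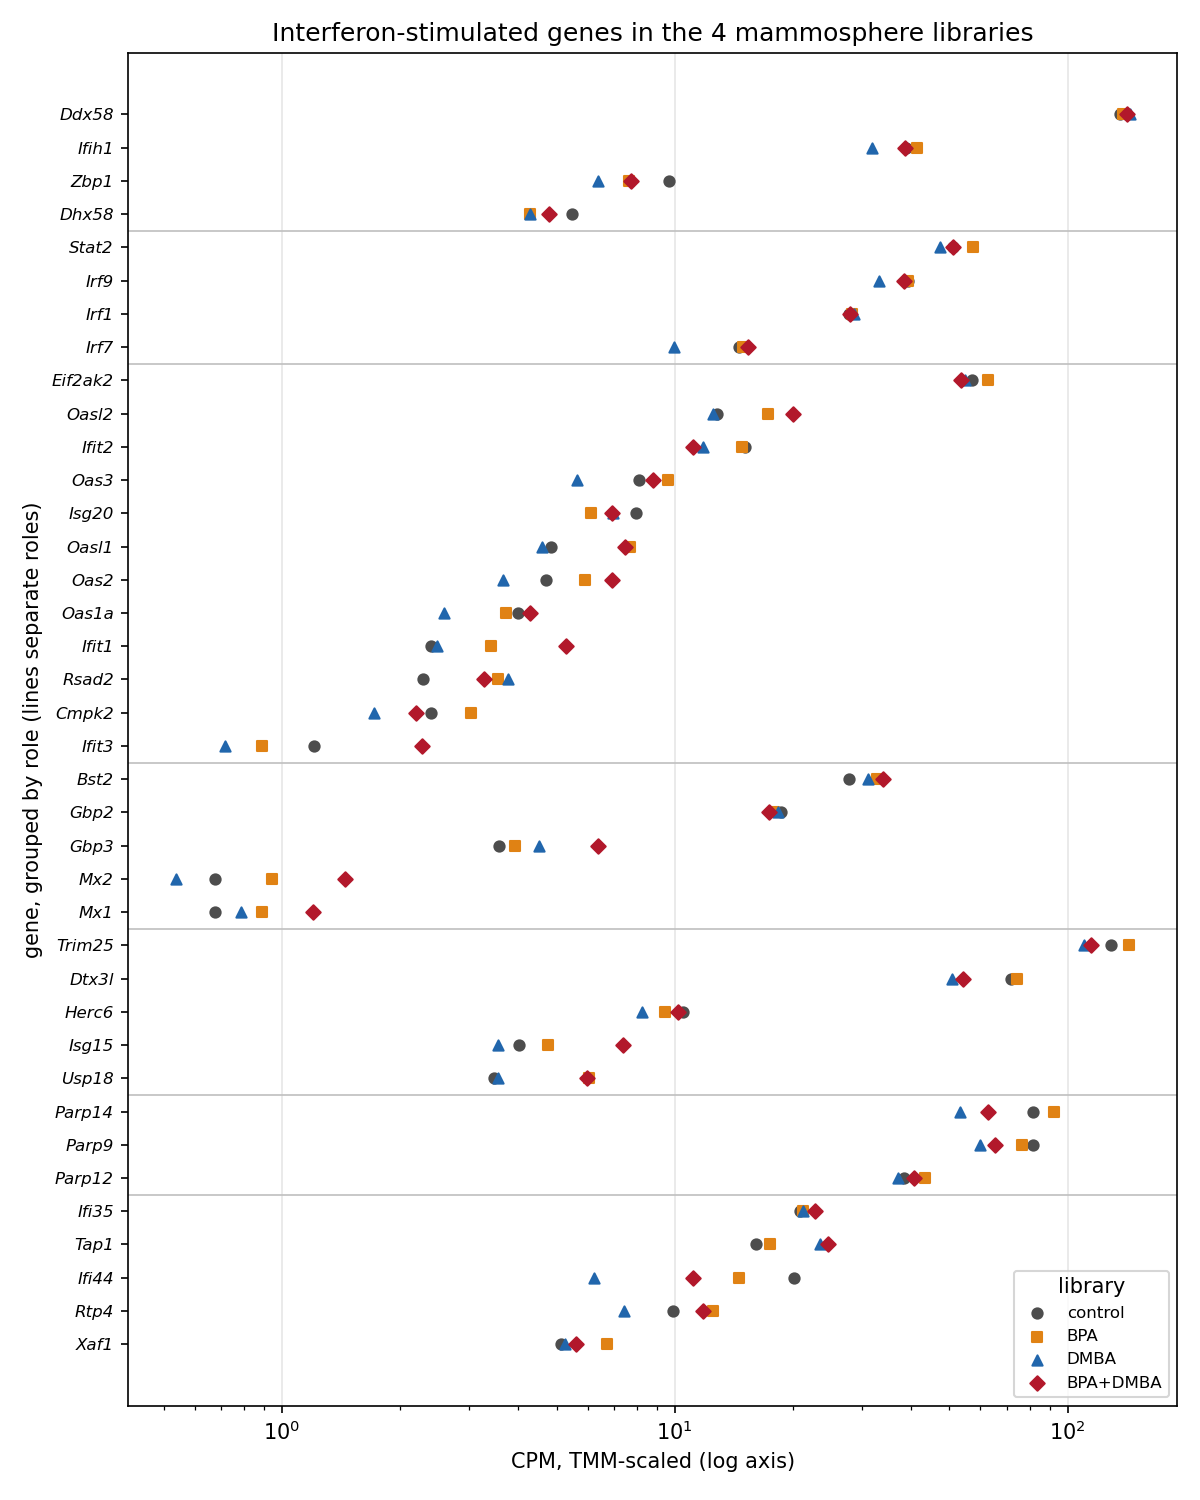
Scaled CPM (log axis) of the 38 members, 1 row per gene and 1 symbol per library, with lines between roles. The DMBA triangle is leftmost for 23 members, and the BPA+DMBA diamond is rightmost for Ifit1, Ifit3, Isg15 and Mx2.

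The library in which a member was lowest was most often DMBA. It was DMBA for 23 of 38 members (60.5%), against 26.9% of all kept genes, control for 11 (28.9% against 26.2%), BPA+DMBA for 3 (7.89% against 24.2%) and BPA for 1, Isg20 (2.63% against 22.6%). The highest library was BPA for 13 members and BPA+DMBA for 13 (34.2% each, against 24.5% and 24.9% of all kept genes). Control was highest for 9 (23.7% against 23.8%), and DMBA for 3, namely Irf1, Ddx58 and Rsad2 (7.89% against 26.9%). Levels of Irf1 and Ddx58 lay within 1.05-fold of each other in all 4 libraries, so their place in this order carries little weight. The same holds for some members counted as lowest in DMBA. Dhx58 had 4.27 CPM there against 4.28 in BPA, Oasl2 12.5 against 12.8 in control, and Parp12 37.0 against 38.3 in control.

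**Figure D2:**
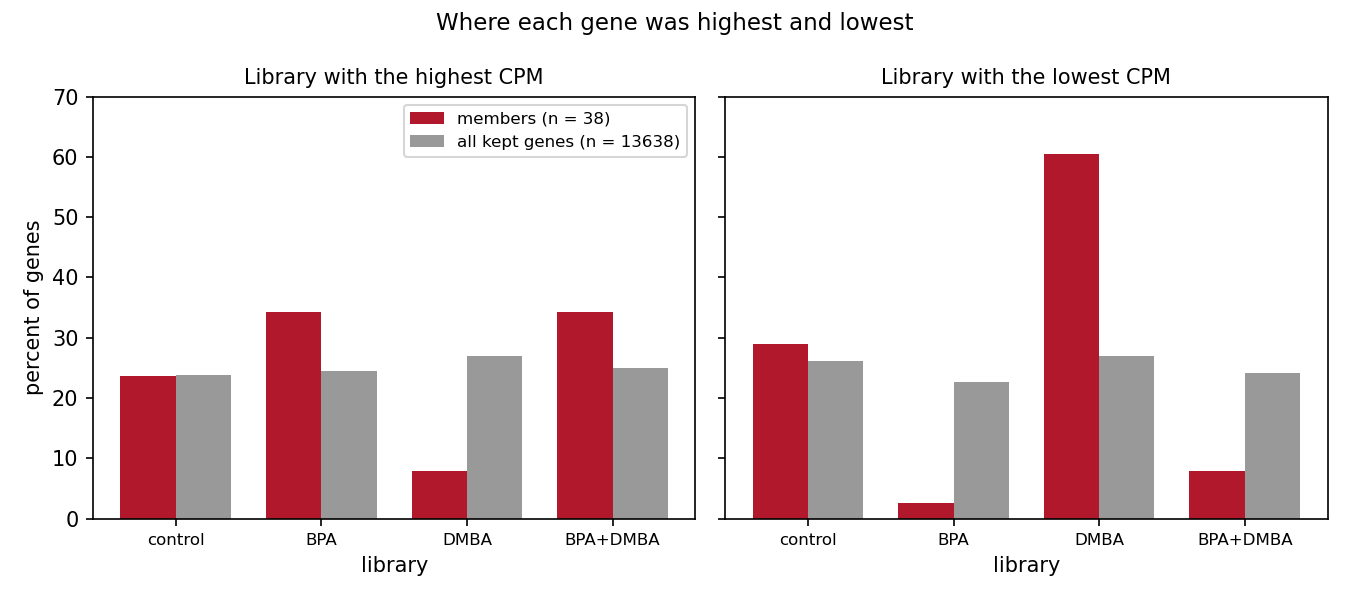
Percent of the 38 members and of all 13638 kept genes that had their highest (left) or lowest (right) CPM in each library. DMBA was the lowest library for 60.5% of the members and 26.9% of all kept genes.

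For a pair of libraries the log2 ratio of scaled CPM is given with an exact 95% interval of the count ratio, which covers counting error only, and a gene was counted as 2-fold apart if it reached that fold with an interval clear of equality. No p-value belongs to a pair, which compares those libraries and not the conditions. An additive model of BPA and DMBA over all 4 libraries gave a quasi-likelihood test in edgeR, whose single residual degree of freedom, the interaction, stood in for replicates, and p-values were adjusted by Benjamini-Hochberg over the 13638 genes.

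Promoter stretches are shown for 3 members that were 2-fold apart in a pair (Ifit1, Ifit3 and Isg15) and for Oas3 and Gbp2, which were not, because the ISRE core is the sequence through which the interferon-activated complex acts on its target genes. The core was searched as GAAANNGAAA on either strand in the 300 bases from 250 before to 50 after each gene's start, in RefSeq sequences of build GRCm38.p6. Of the 39 members, 29 had a promoter in that set, and 13 of those held a core (44.8%), against 3.99% of the 27025 genes in the set. In the stretches below the capitals mark the core, and each is read 5′ to 3′ on the strand of its gene.
Ifit1: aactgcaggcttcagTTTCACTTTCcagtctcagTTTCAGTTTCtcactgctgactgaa
Ifit3: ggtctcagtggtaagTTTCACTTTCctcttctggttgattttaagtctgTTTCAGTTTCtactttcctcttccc
Isg15: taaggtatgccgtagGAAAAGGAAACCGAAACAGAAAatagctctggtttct
Oas3: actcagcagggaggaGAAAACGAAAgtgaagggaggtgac
Gbp2: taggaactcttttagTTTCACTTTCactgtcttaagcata

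The Ifit1 stretch lies at chr19:34640770-34640828 on the plus strand, 119 to 61 bases upstream of the start, and held 2 separate cores. Ifit3 also held 2 separate cores (chr19:34583358-34583431, plus strand), and Isg15 held 3 that overlap (chr4:156200860-156200911, minus strand). Oas3 (chr5:120777710-120777749, minus strand) and Gbp2 (chr3:142620589-142620628, plus strand) held 1 each, and serve as comparison: the level of Oas3 varied by 1.71-fold and that of Gbp2 by 1.07-fold. The other members with a core were Oas1a, Stat2, Rsad2, Ddx58, Ifih1, Bst2, Gbp3 and Eif2ak2. Ifi44, which was at least 2-fold lower in DMBA against control, had a promoter in the set but held no ISRE core. The core of the gamma-activated site, TTCNNNGAA, was held by 7 of the 29 (24.1%), against 9.55% of all genes in the set: Ifit2, Oas1a, Irf1, Isg20, Bst2, Ifi35 and Eif2ak2. No promoter is shown for Mx1, Mx2, Oas2, Usp18, Dhx58, Ifi27, Rtp4, Parp9, Parp14 or Zbp1.

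The effect of BPA was read in mice without DMBA (BPA against control) and in mice with it (BPA+DMBA against DMBA), from pairs that share no library. Ratios of the members were small without DMBA, with a median log2 ratio of 0.13 (0.01 over all kept genes), 27 members above 0 and 11 below. Of all kept genes 7107 were above 0 and 6531 below. None of the 38 was at least 2-fold apart, where 0.271% of all kept genes were higher by that rule and 0.557% lower. With DMBA the median was 0.26 (-0.00 over all kept genes), with 31 members above 0 and 7 below. Of all kept genes 6793 were above 0 and 6844 below. Here 4 members were at least 2-fold higher and 0 lower, against 0.425% and 0.660% of all kept genes: Ifit3, Mx2, Ifit1 and Isg15.

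All 4 belong to the 18 members under 10 CPM, and their counts were low. Of the 3920 kept genes in that range, 51 were at least 2-fold higher by the same rule and 86 lower. With all libraries thinned to the smallest total, Ifit3 and Isg15 alone passed the 2-fold rule, and with total counts alone as the scale Isg15 did not pass and the other 3 did. The median over the 18 members under 10 CPM was 0.28 without DMBA and 0.59 with it, against -0.02 and -0.04 for all kept genes in that range. Over the 20 members at 10 CPM or more the medians were 0.07 and 0.12. Of the 38 members, 23 (60.5%) were higher in the BPA-exposed library of both pairs and 3 (7.89%) lower in both, against 24.6% and 22.7% of all kept genes.

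**Figure D3:**
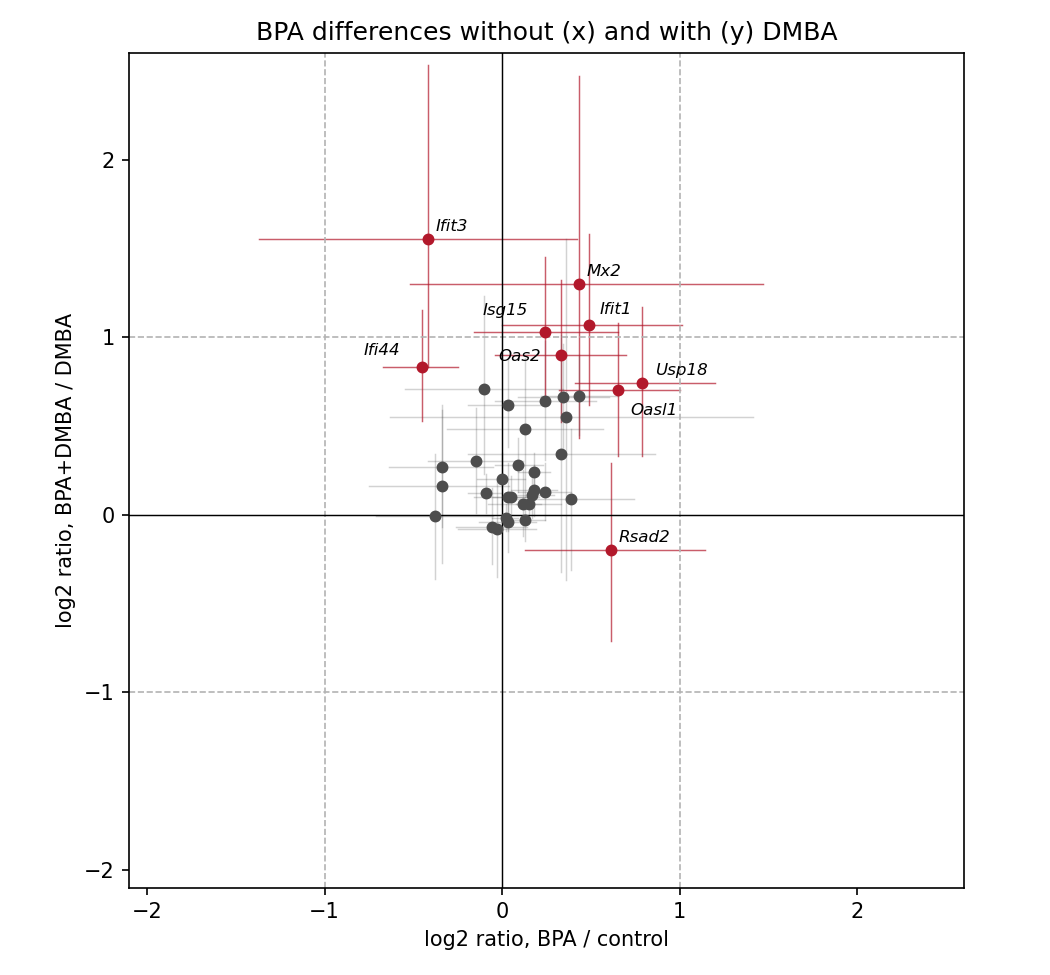
Log2 ratio of each member in BPA against control (horizontal axis) and in BPA+DMBA against DMBA (vertical axis), with 95% counting intervals as thin lines and 2-fold as dashed lines. Ifit3, Mx2, Ifit1 and Isg15 lie above the upper dashed line, and no member is past 2-fold on the horizontal axis.

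The additive test for BPA called 0 of 38 members and 0.00% of all kept genes. At an unadjusted p under 0.05 it held 9 members and 304 of all 13638 genes: Oasl2, Usp18, Oasl1, Rtp4, Ifit1, Parp14, Oas2, Isg15 and Oas3, each with a positive BPA term. The smallest adjusted p of a member in edgeR's quasi-likelihood test was 0.999. DESeq2 and edgeR's likelihood ratio test also called 0 members.

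Among the RNA-binding and nucleotide-acting effectors, Ifit1, which binds the 5′ end of foreign RNA, had 71, 65, 69 and 84 counts. Scaled to depth these were 2.39, 3.40, 2.48 and 5.29 CPM, so BPA+DMBA stood above the other 3 libraries. The log2 ratio of BPA+DMBA to DMBA was 1.07 (0.62 to 1.58), and that of BPA to control was 0.49 (-0.00 to 1.01). Ifit3, of the same family, had 36, 17, 20 and 36 counts, or 1.21, 0.888, 0.718 and 2.27 CPM. Its ratio to DMBA was 1.55 (0.83 to 2.53), while BPA lay below control at -0.42 (-1.37 to 0.42), an interval that includes equality. Ifit2, the neighbour of Ifit3, was the most abundant of the family at 15.1, 14.8, 11.8 and 11.1 CPM and had its highest level in control, with BPA ratios of -0.03 and -0.08.

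Reads shared with near copies bear on this family. The files also have rows for Ifit3b (23, 10, 8 and 19 counts), Ifit1bl1 (12, 8, 6 and 0) and Ifit1bl2 (26, 29, 34 and 22), and for Oas1g beside Oas1a (31, 24, 23 and 17). Reads aligned to more than 1 place, 22.9% to 25.6% of the deposited counts per library, were given to no gene. How many such reads belonged to Ifit1, Ifit3 and Oas1a was not measured, so their values are uncertain by an unknown amount.

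Oas1a, Oas2 and Oas3, the oligoadenylate synthetases among the members, had higher levels in BPA+DMBA than in DMBA; these enzymes make the second messenger that activates RNase L. Oas2 had 139, 113, 102 and 110 counts (4.69, 5.90, 3.66 and 6.93 CPM), with a ratio to DMBA of 0.90 (0.52 to 1.32). Oas1a followed with 0.71 (0.23 to 1.23) and Oas3 with 0.64 (0.31 to 0.98). Without DMBA the intervals of all 3 included equality, at 0.33 for Oas2, -0.10 for Oas1a and 0.24 for Oas3. Oas2 and Oas3 are neighbouring genes. Among the Oas genes outside the members, the ratio to DMBA was -0.23 (-0.90 to 0.41) for Oas1b, 0.15 (-0.33 to 0.62) for Oas1c and 0.34 (-0.62 to 1.34) for Oas1g, so each interval includes equality.

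The synthetase-like genes Oasl1 and Oasl2, also neighbours, differed from this in having similar ratios in both pairs. Oasl1 had 144, 147, 128 and 119 counts, or 4.85, 7.68, 4.59 and 7.49 CPM, so that both BPA-exposed libraries stood above both others. Its log2 ratios were 0.65 (0.32 to 1.00) without DMBA and 0.70 (0.33 to 1.08) with it. Oasl2, the second most abundant effector of this group, had between 317 and 379 counts in each library, or 12.8, 17.3, 12.5 and 20.0 CPM. Its ratios were 0.43 (0.22 to 0.65) and 0.67 (0.45 to 0.90), with an additive BPA term of 0.55 (SE 0.127) that did not pass the quasi-likelihood test (adjusted p = 0.999).

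The rest of this group moved less or otherwise. Rsad2 (viperin, which makes a chain-terminating nucleotide) had 68, 68, 105 and 52 counts, or 2.29, 3.55, 3.77 and 3.27 CPM. Control was its lowest library, though the interval of BPA+DMBA against control, at 0.50 (-0.04 to 1.06), includes equality. Rsad2 was the member with the lowest ratio of BPA+DMBA to DMBA, -0.20 (-0.71 to 0.29), after 0.61 (0.13 to 1.14) for BPA against control. Cmpk2, its neighbour in the genome, had ratios of 0.33 and 0.34 with intervals that include equality. The exonuclease gene Isg20 was lowest in BPA, with -0.38 (-0.71 to -0.05) against control and -0.01 with DMBA. Eif2ak2, the kinase PKR that halts translation on double-stranded RNA, had 1696, 1199, 1527 and 852 counts (57.2, 62.6, 54.8 and 53.6 CPM) and ratios of 0.13 and -0.03.

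Among GTPases and membrane effectors, Mx2 had 20, 18, 15 and 23 counts, or 0.674, 0.941, 0.538 and 1.45 CPM. BPA+DMBA was highest, and the ratio to DMBA was 1.30 with a wide interval of 0.43 to 2.47. Mx1, with 20, 17, 22 and 19 counts, had ratios of 0.36 and 0.55 whose intervals include equality. Gbp3, a guanylate-binding protein, had ratios of 0.13 (-0.31 to 0.57) and 0.48 (0.10 to 0.88), while its near neighbour Gbp2 had 277 to 552 counts (18.6, 17.9, 18.3 and 17.4 CPM) and ratios of -0.06 and -0.07. Bst2 had 823, 628, 863 and 538 counts, or 27.7, 32.8, 31.0 and 33.9 CPM, and ratios of 0.24 (0.09 to 0.39) and 0.13 (-0.03 to 0.29). Control was the lowest library for Bst2.

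Isg15, the ubiquitin-like modifier, had 119, 91, 99 and 117 counts, or 4.01, 4.75, 3.55 and 7.37 CPM. As with Ifit1, BPA+DMBA stood above the other 3, with a ratio to DMBA of 1.03 (0.65 to 1.45), just past 2-fold, and 0.24 (-0.16 to 0.65) for BPA against control. Usp18, the protease that removes ISG15 and also damps the interferon receptor, had 103, 116, 99 and 95 counts, or 3.47, 6.06, 3.55 and 5.98 CPM. Both BPA-exposed libraries were above both others, and its ratio of 0.79 (0.41 to 1.20) was the highest of all members in BPA against control, beside 0.74 (0.33 to 1.17) with DMBA. Herc6, the mouse ligase that attaches ISG15, had ratios of -0.15 and 0.30 (0.01 to 0.60).

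**Figure D4:**
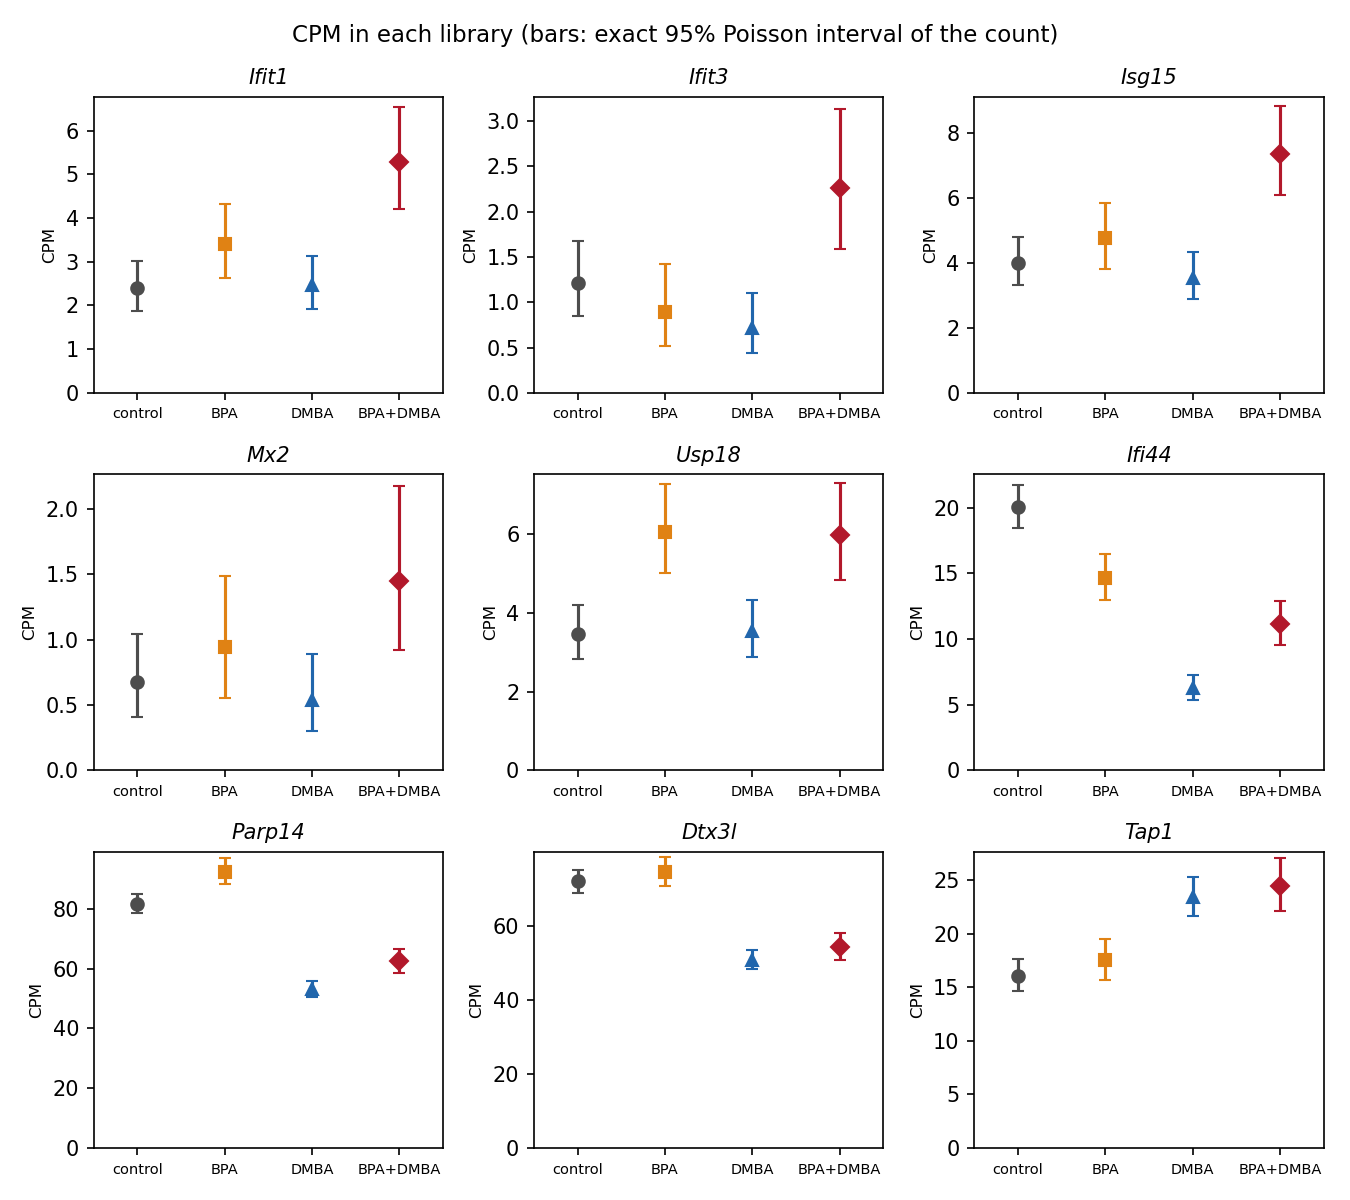
CPM of 9 members in the 4 libraries, 1 panel per gene with its own axis from 0, with bars for the exact 95% Poisson interval of the count. Usp18 is higher in both BPA-exposed libraries, Ifit1, Isg15, Mx2 and Ifit3 are highest in BPA+DMBA, Ifi44 is lowest in DMBA, and Parp14, Dtx3l and Tap1 separate the DMBA-exposed libraries from the others.

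Sensors and transcription factors, most of them abundant, mostly had smaller BPA ratios, with exceptions such as Irf7 with DMBA and Zbp1 without it. Ddx58 (RIG-I) had 4047, 2640, 4005 and 2255 counts (136, 138, 144 and 142 CPM), with ratios of 0.02 (-0.06 to 0.09) and -0.02 (-0.09 to 0.06). Ifih1 (MDA5) had 1149, 791, 884 and 613 counts (38.7, 41.3, 31.7 and 38.6 CPM), with 0.09 (-0.04 to 0.23) and 0.28 (0.13 to 0.43). The regulatory helicase Dhx58 and the Z-form nucleic acid sensor Zbp1 were both at -0.34 without DMBA. The interval excluded equality for Zbp1 (-0.64 to -0.05) and included it for Dhx58 (-0.75 to 0.04). With DMBA, Dhx58 was at 0.16 (-0.27 to 0.59) and Zbp1 at 0.27 (-0.07 to 0.62).

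Stat2 had 1517, 1103, 1321 and 812 counts (51.1, 57.6, 47.4 and 51.1 CPM) and ratios of 0.17 (0.06 to 0.29) and 0.11 (-0.02 to 0.24). Irf9 had 1164, 750, 926 and 608 counts (39.2, 39.2, 33.2 and 38.3 CPM), with -0.00 (-0.14 to 0.13) and 0.20 (0.05 to 0.35). Irf7, the factor that amplifies interferon production, had 433, 286, 278 and 245 counts, or 14.6, 14.9, 9.97 and 15.4 CPM. Only the DMBA library was low for Irf7, so the ratio was 0.03 (-0.19 to 0.25) without DMBA and 0.62 (0.38 to 0.88) with it. The same form, a low level in DMBA alone, was seen in Oas1a (3.98, 3.71, 2.58 and 4.28 CPM).

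Of the remaining members, Rtp4 (a receptor-transporting protein) was higher with BPA in both pairs, by 0.34 (0.09 to 0.60) and 0.66 (0.37 to 0.96). Xaf1 had 0.39 (0.05 to 0.74) and 0.09 (-0.31 to 0.48). Ifi35 had 617, 406, 591 and 361 counts (20.8, 21.2, 21.2 and 22.7 CPM), with 0.03 and 0.10.

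For DMBA, the pairs were DMBA against control (no BPA) and BPA+DMBA against BPA. Without BPA the median log2 ratio of the members was -0.21 (-0.01 over all kept genes), with 27 below 0 and 11 above. All kept genes had 6967 below and 6671 above. With BPA the member median was -0.02 (0.01), with 20 below and 18 above, against 6626 and 7011 of all kept genes. The DMBA library enters both DMBA against control and BPA+DMBA against DMBA, so its low levels lower the one set of ratios and raise the other. When libraries were scaled by total counts alone, the median of all kept genes became 0.10 in the pair without BPA and 0.07 in the pair with it. The member medians were then -0.10 and 0.04, so the second changed sign, while the first, relative to all genes, stayed at -0.20.

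In DMBA against control 1 member was at least 2-fold lower, Ifi44, and 0 higher, against 2.31% and 4.24% of all kept genes. Ifi44 had 595, 280, 174 and 177 counts, or 20.1, 14.6, 6.24 and 11.1 CPM. Control was highest, DMBA lowest, and the log2 ratio was -1.67 (-1.94 to -1.44). In BPA+DMBA against BPA the ratio was -0.39 (-0.67 to -0.12). The additive DMBA term of -1.06 (SE 0.287) did not pass the quasi-likelihood test (adjusted p = 0.056), although edgeR's likelihood ratio test and DESeq2 called it.

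In BPA+DMBA against BPA 1 member was at least 2-fold higher, Ifit3, at 1.27 (0.48 to 2.28), and 0 lower, against 2.77% and 0.968% of all kept genes. Against control, the BPA+DMBA library had 2 members at least 2-fold higher and 0 lower, where all kept genes had 2.98% and 1.41%. These were Ifit1 at 1.12 (0.67 to 1.62) and Mx2 at 1.01 (0.17 to 2.04). The median of all members in that pair was 0.08 (0.00 over all kept genes).

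The additive test for DMBA called 5 of 38 members (13.2%), 1 higher and 4 lower, a share close to the 14.4% of all kept genes. The 3 lower members with the smallest adjusted p were Parp14, Dtx3l and Parp9, which lie next to each other in the genome with no protein-coding gene between them. PARP9 and DTX3L form an ADP-ribosylating ubiquitin ligase, and PARP14 is a related enzyme. Neighbouring members were not taken as independent observations.

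Parp14 had 2425, 1771, 1480 and 994 counts, or 81.7, 92.5, 53.1 and 62.6 CPM. Both DMBA-exposed libraries were below both others, and the gene fell by 0.59 on the log2 scale (SE 0.073, adjusted p = 0.00741, edgeR quasi-likelihood test). Dtx3l had 2133, 1426, 1416 and 863 counts, or 71.9, 74.5, 50.8 and 54.3 CPM, with the same separation. It fell by 0.48 (SE 0.075, adjusted p = 0.0132, edgeR quasi-likelihood test). Parp9 had 2422, 1466, 1671 and 1036 counts, or 81.6, 76.6, 60.0 and 65.2 CPM, and fell by 0.34 (SE 0.0836, adjusted p = 0.0429, same test).

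Trim25 had 3836, 2741, 3072 and 1825 counts, or 129, 143, 110 and 115 CPM, and fell by 0.27 (SE 0.0704, adjusted p = 0.0486, edgeR quasi-likelihood test). Parp12, the third ADP-ribosyltransferase among the members, did not pass, with 38.3, 43.4, 37.0 and 40.7 CPM. Tap1, the transporter that loads peptides for MHC class I, was the member that rose. It had 477, 335, 653 and 389 counts, or 16.1, 17.5, 23.4 and 24.5 CPM, and rose by 0.51 (SE 0.106, adjusted p = 0.0276, edgeR quasi-likelihood test). For Tap1 both DMBA-exposed libraries stood above both others.

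These DMBA calls depended in part on the method. DESeq2 called Parp14 and Ifi44 alone, and a fit with the trend of ratio on exon length taken out called Parp14 and Dtx3l alone. The log2 ratio fell with exon length across genes in DMBA against control (Spearman's rho = -0.303 over 12333 genes, which are not independent replicates). The 4 lower members are all longer than the median of 3361 bases for all genes. Parp14 has 7417 bases, Dtx3l 5725 and Trim25 5754. Parp9, whose call was also lost in the length fit, has 3548 and lies nearest to that median. Without the control library, Parp14 and Dtx3l passed, and without the DMBA library Parp14, Dtx3l and Tap1 did, in fits with DMBA as the only term.

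**Figure D5:**
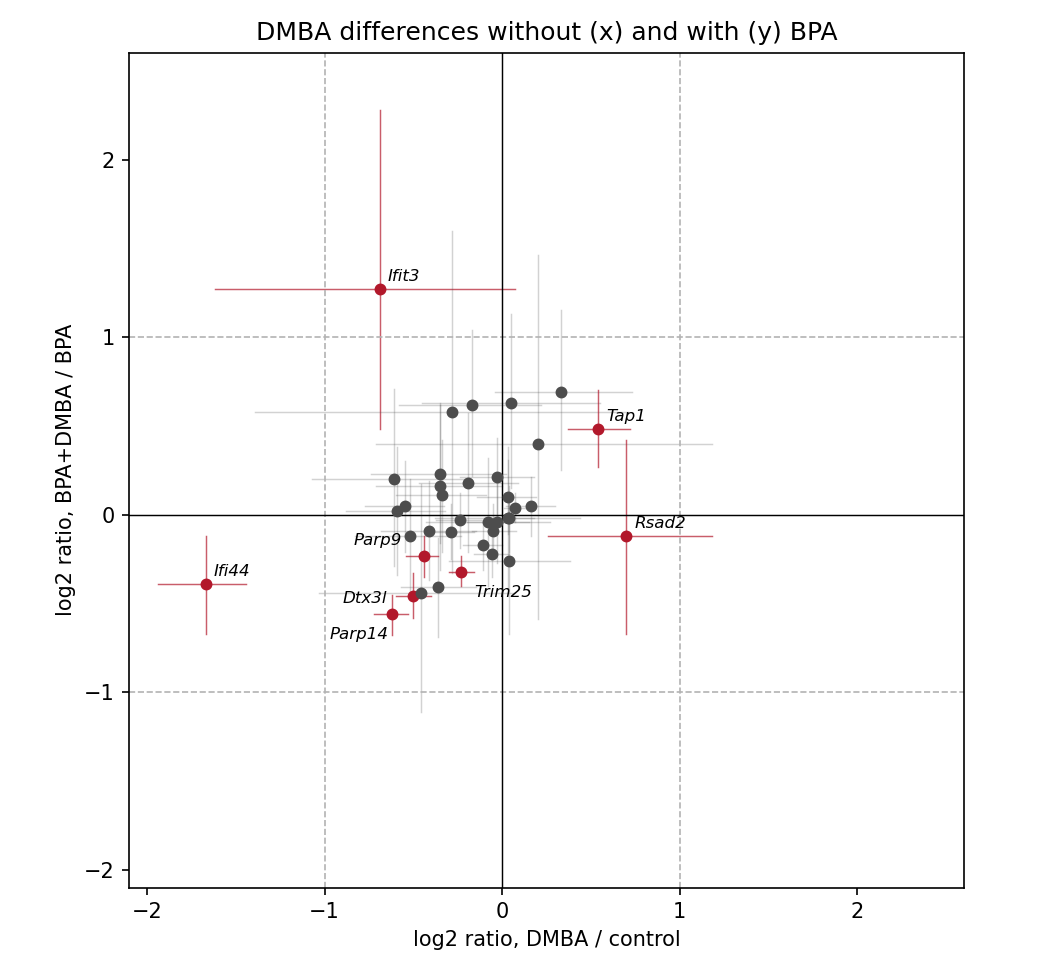
Log2 ratio of each member in DMBA against control (horizontal axis) and in BPA+DMBA against BPA (vertical axis), with 95% counting intervals as thin lines and 2-fold as dashed lines. Parp14, Dtx3l, Parp9 and Trim25 lie below 0 on both axes, Tap1 above 0 on both, and Ifi44 lies past 2-fold on the horizontal axis alone.

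Whether BPA and DMBA together gave what each gave alone was read from the departure from additivity, the BPA log2 ratio with DMBA minus that without it. Its counting interval lay above 0 for 10 of 38 members (26.3%) and below 0 for 2 (5.26%), against 15.7% and 16.7% of all kept genes. Among members under 10 CPM it lay above 0 for 6 of 18 and below for 1, against 354 and 325 of 3920 kept genes. At 10 CPM or more it lay above 0 for 4 of 20 and below for 1, against 1793 and 1948 of 9718 kept genes. The median departure over members was 0.19 (0.42 under 10 CPM and 0.02 at 10 CPM or more), and -0.01 over all kept genes. A low level in the DMBA library alone raises this value, and DMBA was the lowest library for 23 of the 38 members. Higher departures were not particular to the members. All 10 fibroblast markers had an interval above 0, with a median of 0.94. With 1 library in each group, what lies behind these departures was not tested. The 10 were Ifit3, Ifi44, Oas1a, Isg15, Zbp1, Irf7, Oas2, Herc6, Parp9 and Irf9, and the 2 were Rsad2 and Eif2ak2.

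Ifit3 had the largest departure, 1.96 (0.82 to 3.11), on counts of 17 to 36. Ifi44 followed with 1.28 (0.92 to 1.64), and is the better measured: BPA was lower than control by a log2 ratio of -0.45 (-0.67 to -0.25), and BPA+DMBA higher than DMBA by 0.83 (0.53 to 1.15). Isg15 had 0.79 (0.24 to 1.35), and Rsad2 had the largest negative value, -0.81 (-1.49 to -0.13). Usp18 and Oasl1, whose ratios were alike in both pairs, had departures of -0.05 (-0.61 to 0.51) and 0.04 (-0.45 to 0.53), intervals wide enough to hold sizeable departures either way.

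The promoter cores shown above did not divide the members sharply. In BPA+DMBA against DMBA the median was 0.28 over the 13 members with an ISRE core in the window and 0.12 over the 16 without one. At least 2-fold higher were 3 and 0 members, while 9 of the 13 and 13 of the 16 were above 0. In DMBA against control the medians were -0.06 and -0.21, with 0 and 1 members (Ifi44) at least 2-fold apart. Ddx58, Stat2 and Gbp2, which hold a core, had ratios of -0.02, 0.11 and -0.07 in BPA+DMBA against DMBA, beside 1.07 for Ifit1 and 1.55 for Ifit3.

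Other genes of the pathway were read from separate lists. Of 19 interferon ligand genes in the files, 17 had 0 counts in every library, Ifnb1 among them, Ifnz had 1, 3, 5 and 4 counts and Ifne 0, 0, 1 and 0. At this depth ligand transcripts were thus at or near the limit of 3 counts. Receptors, kinases and negative regulators (15 kept genes) had medians of -0.00 and 0.04 in the pairs without and with DMBA for BPA, and of -0.19 and -0.11 in the DMBA pairs. In the additive test for DMBA 1 of the 15 fell, Il28ra, a receptor chain for type III interferon, by 0.44 on the log2 scale (adjusted p = 0.0145 in edgeR's quasi-likelihood test). Over all kept genes that test called 14.4% in either direction, the share to set beside this and the following lists.

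Genes that sense nucleic acids upstream of interferon (18 kept) had BPA medians of 0.04 and 0.01, and 2 rose with DMBA, the kinase gene Ikbke by 0.61 (adjusted p = 0.0207, edgeR) and the factor gene Irf5 by 1.00 (adjusted p = 0.0408, edgeR). A list of 43 other interferon-induced genes, which includes the member Ifih1, had BPA medians of 0.07 without DMBA and 0.25 with it, with 35 above 0 and 8 below in the latter. At least 2-fold higher there were Iigp1, at 1.76 on 37, 27, 19 and 40 counts, and Cxcl10, at 1.37 on 25, 23, 25 and 39 counts. Lower was Ifi27l2a, at -1.35. By that rule 0.425% of all kept genes were higher and 0.660% lower. With DMBA 3 of the 43 rose in the additive test (Ifitm3 by 0.82, Slfn5 by 0.62 and Ly6e by 0.39). In the same test 1 fell, Znfx1 by 0.61 (adjusted p from 0.00361 to 0.0305 in edgeR), against 14.4% of all kept genes called in either direction. The 14 genes of MHC class I and antigen processing had BPA medians of 0.04 and 0.01, and 0 of them passed the additive test for DMBA.

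Markers of other cells moved between the same libraries. Immune cell markers summed to 34.7, 39.1, 41.3 and 47.2 CPM, and 4 of the 22 in the files were at 0 everywhere. The pan-leukocyte gene Ptprc had 3, 1, 2 and 2 counts and Tyrobp 0, 0, 0 and 2, near the limit of 3 counts. The 5 kept immune markers had a median ratio of BPA+DMBA to DMBA of 0.13. Of these, Lyz2 (8, 7, 31 and 44 counts) and Csf1r (45, 15, 18 and 24) were at least 2-fold higher, at 1.25 and 1.13. By that rule 0.425% of all kept genes were higher. Cd68, the most counted, was at 0.04 (-0.15 to 0.23), H2-Ab1 at 0.13 and Itgax at -0.23.

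All 10 fibroblast markers were lower in BPA than in control (median -0.37) and higher in BPA+DMBA than in DMBA (median 0.52). In DMBA against control 8 of the 10 were lower (median -0.53), and in BPA+DMBA against BPA all 10 were higher (median 0.46). Endothelial markers summed to 56.9, 67.2, 104.8 and 103.1 CPM, with medians of 1.14 and 0.82 in the DMBA pairs, and 4 of 8 rose in the additive test for DMBA. Basal markers had medians of 0.95 and 0.72 in the DMBA pairs, and 10 of 17 rose. Luminal markers had medians of -0.25 and -0.24, with 5 of 16 that fell and 2 that rose. Of all kept genes 14.4% were called in that test, in either direction. The part of these markers in the members' ratios was not tested.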

How the data were processed

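RNA from 4 pooled mammosphere libraries was sequenced after TruSeq RNA library preparation, per the labels' protocols. The authors deposited whole-number read counts per gene symbol. The submitters' processing notes list CASAVA 1.8.2, HTSeq, DESeq and mm9. For the aligner, the strand setting and each tool's role, nothing is given in the sources used here. Reads of antisense and overlapping genes therefore cannot be told apart. Summary entries outside genes were left out (reads in no gene, 11.3% to 13.5% of counts).

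The members and all lists were chosen with earlier results of these data known. Genes reaching 20 counts in any library were kept, and counts were scaled by TMM (factors 0.969, 0.973, 1.05 and 1.01) in edgeR 4.0.16 under R 4.3.3. Pair ratios used a prior count of 2 and exact Clopper-Pearson intervals. The additive quasi-likelihood test used all 4 libraries and a threshold of 0.05 on the adjusted p. It is too strict for genes where BPA and DMBA interact. Fits were also run on simulated counts, drawn without any interaction of BPA and DMBA and with a spread estimated from these data. That run cannot show how the test behaves for genes where the agents interact.

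Values in each library were given for members at least 2-fold apart in a pair, members passing a test and the 2 most abundant of each role. In each pathway list up to 4 genes with the largest BPA+DMBA to DMBA ratio qualified. The values of 1 gene of those lists are not reported here. Others, such as Usp18, Oasl1, Oas2, Irf7 and Rsad2, were chosen after their values were seen. Exon lengths are GENCODE vM21 (GRCm38), while the counts use mm9. Alternatives included DESeq2 1.42.0, other scaling, filters and prior counts, thinning, length correction and leaving out each library. The pair of BPA+DMBA with control and the length offset in the additive tests were added after seeing the data.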

Additional observations from a re-analysis of the deposited data

Results flagged for a closer look

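Ifi44 was the member whose BPA ratio pointed in opposite directions with and without DMBA, with intervals that exclude equality on both sides. The log2 ratio was -0.45 (-0.67 to -0.25) in BPA against control and 0.83 (0.53 to 1.15) in BPA+DMBA against DMBA, a difference of 1.28 (0.92 to 1.64). This pattern was not particular to Ifi44. All 10 fibroblast markers had intervals below 0 in the first pair and above 0 in the second. By sign alone, 8 of the 38 members (21.1%) were lower in the first and higher in the second, against 25.2% of all kept genes. With 1 library in each group these intervals cover counting error only, and the difference was not tested against replicate spread.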

How the results depend on the processing

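With 1 library in each group, nothing here measures the spread between animals or cultures, and the low counts of Ifit3, Mx2 and Ifit1 limit their ratios most. In BPA+DMBA against DMBA the member median of 0.26 became 0.21 with total counts alone, 0.16 at a minimum of 100 counts and 0.22 after thinning to the smallest library. The 4 members at least 2-fold apart became 1 (Isg15) at that minimum, which leaves 33 members, and 2 (Ifit3 and Isg15) after thinning, and with total counts 3 remained, without Isg15. In DMBA against control the median of -0.21 became -0.10 with total counts and -0.18 at 100 counts, and thinning gave 2 members apart in place of 1. In BPA+DMBA against BPA the median of -0.02 became 0.04 with total counts and -0.06 with the length trend removed, and 0 members were apart at 100 counts. In BPA+DMBA against control the median of 0.08 became 0.15 with total counts and 0.05 without the length trend, and the 2 members apart became 0 at 100 counts and 1 without the trend. The 5 members passing the additive test for DMBA became 2 in DESeq2, 3 with total counts and 2 with the length offset. Leaving out 1 library, with DMBA as the only term and the lone library of an arm assumed to vary like the others, gave from 2 members (without control) to 7 (without BPA+DMBA), and 3 without DMBA. Parp14 passed in each of these fits. The additive test for BPA called 0 members in every setting run. Apart from fewer genes at the higher minimum and fewer counts after thinning, the cause of these changes was not tested. No paired analysis was possible because each group holds 1 library.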
